A study of Arabidopsis thaliana with 6 samples.

Results

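The small auxin-up RNA (SAUR) genes are among the most rapidly auxin-induced transcripts of plants, and the 50 members described here were taken by locus tag, as genes of this family. They comprise 32 genes of 6 tandem clusters on chromosomes 1 to 5 and 18 dispersed genes, out of 33518 genes in the deposited tables. Transcripts were sequenced from whole seedlings of Arabidopsis thaliana, all in the Col-0 background. All were 5 days old, from plates of half-strength MS medium in constant light. The groups, of 2 libraries each, were PRE1-Ox/IBH1-Ox (35S:IBH1-myc/35S:PRE1-YFP, here the double line), IBH1-Ox (35S:IBH1-myc) and wild type. Both lines with a transgene carry 35S:IBH1-myc, so the second comparison adds 35S:PRE1-YFP to a shared transgene. The 35S promoter drives strong expression in most plant tissues, and the labels do not say how many independent lines were sequenced.

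SAUR proteins are small and mostly short-lived. Several, among them SAUR19, bind and inhibit clade D type 2C protein phosphatases (PP2C.D). These phosphatases remove an activating phosphate from the plasma membrane proton pumps (AHA proteins), so that SAUR proteins keep the pumps active, acidify the cell wall and promote cell expansion in hypocotyls, filaments and other growing organs. Transcription of SAUR genes is known to respond to auxin, brassinosteroid, light and warmth, through auxin response factors, BZR1 and BES1, and PIF4 and PIF5. IBH1 is a helix-loop-helix protein that binds growth-promoting bHLH factors such as HBI1 and blocks their DNA binding, and PRE1, a helix-loop-helix protein of small size, binds IBH1 in turn.

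The authors compared IBH1-Ox with wild type in one table and the double line with IBH1-Ox in another. The IBH1-Ox libraries thus stand in both comparisons, as the overexpressing group in one and as the baseline in the other. Values are the authors' normalized counts, read counts divided by a size factor for each library. Their deposited group means were split back into the whole reads of each library, so that values of single libraries can be given. Within a group the library with the larger size factor, which is the deeper one, is always given first. The tables were scaled separately, so the same IBH1-Ox library has a slightly different normalized count in each. The recovered reads over genes were 9506402 and 7979224 in the double line and 13918858 and 12187738 in IBH1-Ox, and the 50 members took 11043 reads in those 4 libraries together. For wild type, reads could be recovered for 1544 of the 1547 genes of the first table and no others, 1151302 and 783116 in all. The labels do not say that the libraries of a group came from separate cultures, so p-values measure the spread between these libraries, which may be technical. In whole seedlings, fewer cells that express a gene and less RNA per cell cannot be told apart.

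The overexpressed genes followed the labels. IBH1 (AT2G43060) had 11790 and 12997 normalized counts in IBH1-Ox, against 179 and 138 in wild type. PRE1 (AT5G39860) had 8465 and 8344 in the double line, against 125 and 135 in IBH1-Ox. The groups did not overlap for either gene, and reads of a transgene and of the resident gene cannot be told apart. IBH1 itself stood at 16541 and 16523 in the double line, against 10551 and 11629 in IBH1-Ox. PRE1 in turn was listed as higher in IBH1-Ox than in wild type. Its group means were 146 in IBH1-Ox and 61.5 in wild type (adjusted p 6.68e-10 in the authors' deposited table).

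The 6 clusters span 6.15 to 22.4 kb each in the RefSeq annotation of TAIR10.1, the build of every coordinate given here, while the submitters named TAIR10 and the tables carry no coordinates. Of the 50 members, 46 have a single exon, and the encoded proteins are 86 to 190 residues long, with a median of 108. The clusters differ in how alike their members are. In the chromosome 5 cluster, SAUR19 to SAUR24 at chr5:5962773-5984308, proteins share 89.0% to 95.6% of residues between pairs. In the chromosome 1 cluster, SAUR61 to SAUR68 at chr1:10301377-10323239, the range is 42.5% to 86.6%. In the chromosome 4 cluster of SAUR1 to SAUR5, SAUR49 and SAUR50, at chr4:16577180-16599568, it is 24.5% to 59.7%. The first 60 bases of the coding sequences of SAUR19 to SAUR24, which lie on chromosome 5 between positions 5963246 and 5983899, are shown because reads of these genes can be assigned only where the copies differ. Capitals mark the 12 positions at which the 6 genes are not all the same.
SAUR19: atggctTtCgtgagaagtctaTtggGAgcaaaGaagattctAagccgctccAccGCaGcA
SAUR20: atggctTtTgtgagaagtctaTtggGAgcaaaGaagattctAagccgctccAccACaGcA
SAUR21: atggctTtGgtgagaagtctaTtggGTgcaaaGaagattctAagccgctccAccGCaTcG
SAUR22: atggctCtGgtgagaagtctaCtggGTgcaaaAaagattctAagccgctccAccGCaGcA
SAUR23: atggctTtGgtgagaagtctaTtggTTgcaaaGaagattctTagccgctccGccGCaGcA
SAUR24: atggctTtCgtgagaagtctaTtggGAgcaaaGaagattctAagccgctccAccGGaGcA
Of the 50 members, 38 have no stretch of 50 bases in common with another place in the genome, and 4 have less than 90% of such stretches unique, namely SAUR62 (76.8%), SAUR63 (72.9%), SAUR67 (66.1%) and SAUR19 (81.5%). Reads that aligned to more than 1 place were kept apart from the genes in the second table, where they made up 10.3% of the summed signal in the double line and 12.8% in IBH1-Ox. Values of these 4 members are therefore less certain than those of the rest. On the other strand, 6 members overlap another gene, namely SAUR61, SAUR63, SAUR64, SAUR7, SAUR8 and SAUR13, and SAUR6 and SAUR7 overlap each other on the same strand. The kit named in the labels does not mark the strand, so such reads cannot be told apart.

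Levels differed widely between members. As group means per kilobase of exon in IBH1-Ox seedlings, on the scale of the second table, the median member had 32.3 normalized counts per kb and 7 members had 100 or more. SAUR14 (AT4G38840), a light-responsive member of the second chromosome 4 cluster (SAUR13 to SAUR16, chr4:18121526-18131284), led with 978 per kb. It was followed by SAUR6 with 436, SAUR16 with 377 and SAUR50 with 344 per kb. Then came SAUR63 with 169, SAUR37 with 160 and SAUR62 with 122 per kb. The summed normalized counts of all 50 members were 3657 and 3735 in the double line, against 3480 and 3418 in IBH1-Ox. SAUR14, SAUR6 and SAUR16 alone took 46.1% of the members' reads. At the other end, SAUR13 and SAUR2 had 0 reads in each of the 4 libraries, where a count of 0 allows up to 3 reads per library, and 9 further members stayed under a mean of 10 normalized counts over these libraries.

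In IBH1-Ox seedlings, 14 of the 50 members were listed as lower than in wild type and 1 as higher. They were 7 of the 8 genes of the chromosome 1 cluster, 3 of the 6 of the chromosome 5 cluster, and SAUR15 and SAUR16 on chromosome 4 with SAUR26 and SAUR27 on chromosome 3. No member of the SAUR1 to SAUR5 cluster or of the chromosome 2 cluster was listed, and of the 18 dispersed members SAUR37 alone was, as the higher one. The authors' deposited table holds genes with an adjusted p below 0.05 in their DESeq test and a fold of 1.5 or more. By the same rule 3.03% of the 24779 genes or entries that their adjusted p-values imply as tested were lower and 3.22% higher. A member that is absent from it is not listed, and nothing more can be said of it, since a change under 1.5-fold would be left out even where the test called it.

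The fall was between 1.55-fold and 3.99-fold, with a median log2 ratio of -1.07 over the 14 listed members. The libraries of the groups did not overlap for any of the 14, which by itself says little because they did not overlap for 100% of the 747 lower genes of the table whose reads were recovered. Summed over the 14, the members had 1189 and 1134 normalized counts in IBH1-Ox, against 2443 and 2277 in wild type. These members stand in the table because they differed, so their sum is a description.

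In the second chromosome 4 cluster, SAUR15, known as SAUR-AC1 (AT4G38850) and an early marker of auxin response, had 18.2 and 12.3 normalized counts in IBH1-Ox, against 64.3 and 57.5 in wild type. This was the steepest fall of the 14, with a log2 ratio of -2.00 and an adjusted p of 3.41e-07 in the authors' deposited table. Its neighbour SAUR16 (AT4G38860), a light-induced member, had 413 and 469 in IBH1-Ox, against 891 and 912 in wild type (log2 ratio -1.03, adjusted p 8.5e-24 in the authors' deposited table). SAUR16 was the most abundant of the listed members, with a group mean of 421 per kb in IBH1-Ox and 860 per kb in wild type, and its libraries lay close together within each group. SAUR14, which lies between SAUR13 and SAUR15 and had the highest level per kb of the 50 members in the second table, was not listed.

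**Figure D1:**
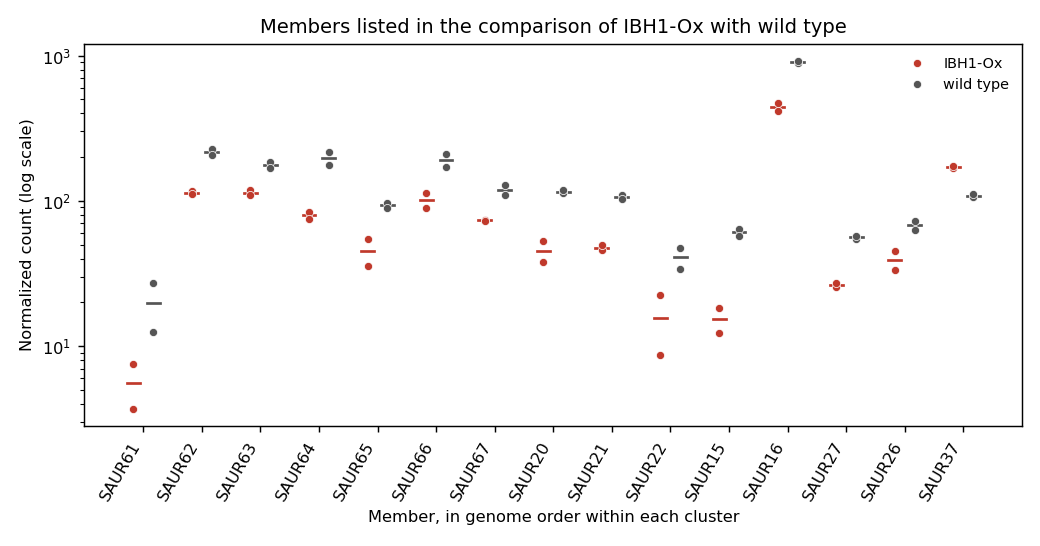
Normalized counts (log axis) of the 15 members listed in the first comparison, with IBH1-Ox libraries in red to the left of wild-type libraries in grey. Each point is a library and each bar the mean of a group. The IBH1-Ox points lie below the wild-type points for 14 members and above them for SAUR37.

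In the chromosome 1 cluster, whose member SAUR63 is known to promote elongation of hypocotyls and stamen filaments, SAUR64 (AT1G29450) had 83.5 and 75.1 normalized counts in IBH1-Ox, against 216 and 177 in wild type (log2 ratio -1.31, adjusted p 2.59e-11 in the authors' deposited table). SAUR62 (AT1G29430), the member of highest mean there, had 117 and 111 in IBH1-Ox, against 227 and 206 in wild type. SAUR65 (AT1G29460) had 54.6 and 35.7 in IBH1-Ox, against 96.8 and 89.0 in wild type. The groups were well separated for all of these. SAUR61 (AT1G29420) had a low count, 7.49 and 3.69 in IBH1-Ox from 7 and 3 reads, against 27.0 and 12.4 in wild type from 34 and 11 reads. Its log2 ratio of -1.82 (adjusted p 0.0293 in the authors' deposited table) thus rests on few reads. The other listed members of the cluster were SAUR66 (log2 ratio -0.92), SAUR67 (-0.69) and SAUR63 (-0.63), all in the authors' deposited table. SAUR68 was the member of the cluster that was not listed, and it had 3 and 0 reads in the double line and 6 and 5 in IBH1-Ox.

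In the chromosome 5 cluster, whose proteins promote cell expansion when stabilised, SAUR20 (AT5G18020) had 52.5 and 38.2 normalized counts in IBH1-Ox, against 113 and 118 in wild type. SAUR21 (AT5G18030) had 46.0 and 49.2 in IBH1-Ox, against 110 and 103 in wild type. SAUR22 (AT5G18050) had 22.5 and 8.62 in IBH1-Ox, against 47.6 and 33.8 in wild type. The groups were apart in each case, most narrowly for SAUR22, whose IBH1-Ox libraries came from 21 and 7 reads. The log2 ratios were -1.35, -1.16 and -1.39 in that order in the authors' deposited table, with adjusted p-values of 7.76e-06, 1.74e-05 and 0.00386. SAUR19, SAUR23 and SAUR24 were not listed, and SAUR21 shares at least 95% of its protein with another copy.

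In the chromosome 3 cluster (chr3:976715-983768), which belongs to a subfamily known for its part in growth at warm temperature, SAUR27 (AT3G03840) had 25.7 and 27.1 normalized counts in IBH1-Ox, against 54.8 and 57.5 in wild type (log2 ratio -1.09, adjusted p 0.00649 in the authors' deposited table). SAUR26 (AT3G03850) had 45.0 and 33.2 in IBH1-Ox, against 73.0 and 63.1 in wild type (log2 ratio -0.80, adjusted p 0.0359 in the authors' deposited table). The IBH1-Ox libraries of SAUR27 lay close together and those of SAUR26 less so. SAUR28 and SAUR29 were not listed. Against this direction, the dispersed member SAUR37 (AT4G31320) had 167 and 175 in IBH1-Ox, against 106 and 112 in wild type (log2 ratio 0.65, adjusted p 0.0103 in the authors' deposited table).

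With PRE1 overexpressed as well, few members were called relative to IBH1-Ox, and in both directions. With 2 libraries in each group, a member that was not called is not shown to be unchanged. By the ratios of the authors' deposited table, SAUR52 was 7.77-fold, SAUR1 2.09-fold and SAUR5 2.04-fold higher in the double line, while SAUR28 was 5.42-fold and SAUR63 1.54-fold lower. Of the 48 members with a p-value in the authors' deposited table, 3 were higher and 2 lower at an adjusted p below 0.05, and 43 were not called. Over all 24451 genes with a p-value the same rule called 12.7% higher and 9.78% lower. At an unadjusted p below 0.05 the authors' test had 4 members higher and 3 lower. The median log2 ratio of the 48 members was -0.076, against -0.0082 over the 22722 genes with a finite ratio, and 21 members lay above 0 and 27 below.

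A fit of the recovered reads with limma-voom, which gives standard errors, took the 39 members of mean normalized count 10 or more and called 5 higher and 2 lower at an adjusted p below 0.05. Over all 19994 genes fitted it called 20.8% higher and 17.3% lower. The members' median log2 fold change was 0.026 in this fit, against -0.0044 for all genes. Counted by whether the libraries of the groups overlapped, 10 of the 39 members were higher in the double line without overlap and 14 lower, where the shares over all genes were 34.4% and 34.5%. The shares of called members lay near or under those of all genes by each of these counts.

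**Figure D2:**
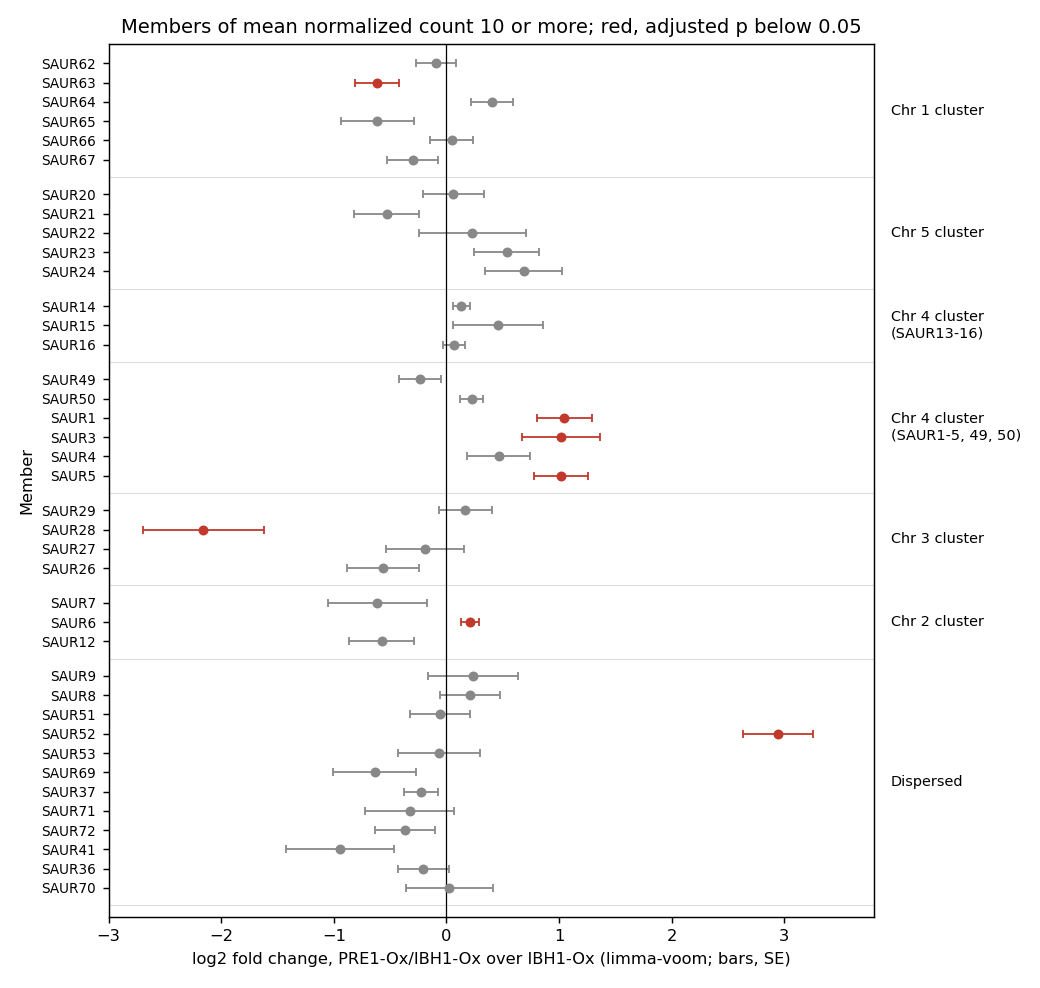
Log2 fold change of the double line over IBH1-Ox (points, limma-voom estimates; bars, SE; 2 libraries in each group) for the 39 members fitted, in rows grouped by cluster. The 7 members called are in red: SAUR52 at 2.94 stands far to the right, SAUR28 at -2.16 to the left, and SAUR1, SAUR3 and SAUR5 of the same chromosome 4 cluster lie near 1.

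SAUR52 (AT1G75590), a dispersed member on chromosome 1 next to SAUR51, had 106 and 105 normalized counts in the double line, against 17.2 and 9.91 in IBH1-Ox. The double-line libraries were nearly equal and far above both IBH1-Ox libraries. The log2 fold change was 2.94 ± 0.31 (SE, n = 2 each; limma-voom adjusted p 8.5e-08), and it stayed between 2.59 and 3.35 when each library in turn was left out. Per kb of exon its level was 110 normalized counts in the double line and 14.2 in IBH1-Ox. The adjacent SAUR51 had 39.5 and 41.3 in the double line, against 38.3 and 47.4 in IBH1-Ox, and these ranges overlapped. The related pair SAUR53 and SAUR54 had log2 ratios of -0.02 and 0.39 in the authors' deposited table, neither called, and SAUR54 had at most 3 reads in a library.

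In the SAUR1 to SAUR5 cluster, of which no member was listed against wild type, SAUR1 (AT4G34770) had 61.6 and 71.4 normalized counts in the double line, against 30.7 and 33.0 in IBH1-Ox. SAUR5 (AT4G34810) had 66.3 and 73.2 in the double line, against 36.4 and 31.9 in IBH1-Ox. SAUR3 (AT4G34790) had 52.1 and 30.0 in the double line, against 24.9 and 15.4 in IBH1-Ox. The groups were clearly apart for SAUR1 and SAUR5 and less so for SAUR3. In limma-voom the log2 fold changes were 1.05 ± 0.25 for SAUR1, 1.01 ± 0.24 for SAUR5 and 1.02 ± 0.34 for SAUR3 (SE, n = 2 each), with adjusted p-values of 0.0018, 0.0018 and 0.023. The authors' test did not call SAUR3 (adjusted p 0.0963 in the authors' deposited table), and limma-voom lost the call (adjusted p 0.353) without the deeper library of the double line and without the shallower one of IBH1-Ox (adjusted p 0.124). SAUR50 (AT4G34760), the most abundant gene of the cluster, had 363 and 355 in the double line, against 326 and 289 in IBH1-Ox, a log2 fold change of 0.22 ± 0.10 that limma-voom did not call (adjusted p 0.084). SAUR4 (0.46 ± 0.28) and SAUR49 (-0.23 ± 0.19) were not called either.

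SAUR28 (AT3G03830) on chromosome 3 had 3.16 and 3.76 normalized counts in the double line, from 2 reads in each library, against 22.0 and 15.4 in IBH1-Ox from 23 and 14 reads. The groups were far apart, on few reads. The log2 fold change was -2.16 ± 0.54 (SE, n = 2 each; limma-voom adjusted p 0.0029). The other genes of its cluster did not pass the test, with log2 fold changes of 0.17 ± 0.24 for SAUR29, the most abundant there with 52.1 and 58.2 in the double line, against 52.7 and 45.2 in IBH1-Ox, -0.19 ± 0.35 for SAUR27 and -0.56 ± 0.32 for SAUR26. SAUR63 (AT1G29440) had 67.9 and 63.9 in the double line, against 105 and 98 in IBH1-Ox (log2 fold change -0.61 ± 0.20, limma-voom adjusted p 0.016). The call of SAUR63 was lost without either library of the double line, at limma-voom adjusted p-values of 0.0935 and 0.114.

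SAUR6 (AT2G21210), the most abundant member of the chromosome 2 cluster (chr2:9083906-9090052), had 687 and 721 normalized counts in the double line, against 579 and 643 in IBH1-Ox. Its groups were apart by less than the IBH1-Ox libraries were from each other. The log2 fold change of 0.21 ± 0.08 passed in limma-voom (adjusted p 0.040) but not in the authors' test (adjusted p 0.171 in the authors' deposited table), and without 3 of the 4 libraries in turn limma-voom did not call it. SAUR12 (-0.58 ± 0.29) and SAUR7 (-0.61 ± 0.44) of the same cluster were not called.

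**Figure D3:**
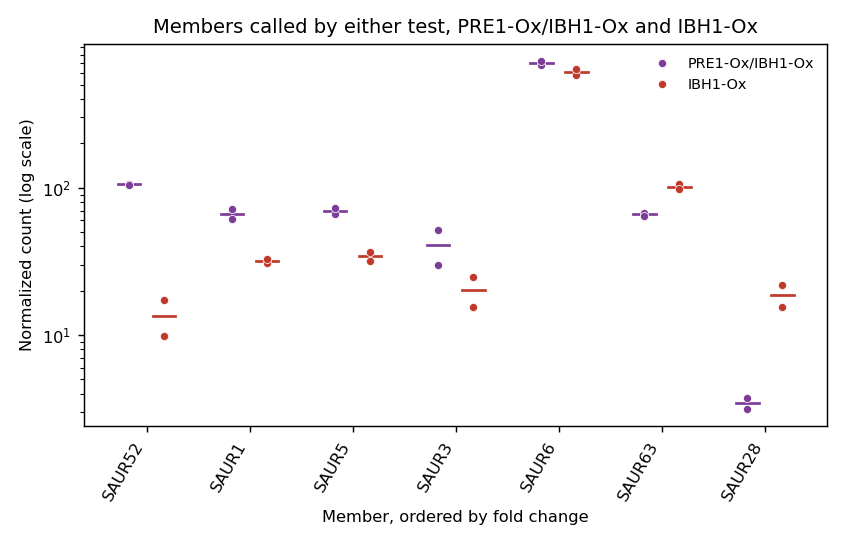
Normalized counts (log axis) of the 7 members called by the authors' test or by limma-voom in the second comparison, with the libraries of the double line in purple to the left of IBH1-Ox libraries in red. Each point is a library and each bar the mean of a group, and SAUR52 shows the widest gap between groups.

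There were 6 members with group means at least 2-fold apart without being called by the authors' test, and all but SAUR3 had few reads. SAUR38 had 2 and 2 reads in the double line, against 10 and 16 in IBH1-Ox (log2 ratio -1.98, adjusted p 0.103 in the authors' deposited table). SAUR11 had 1 and 1 reads in the double line, against 3 and 7 in IBH1-Ox. SAUR10 had 3 and 1 in the double line, against 9 and 6 in IBH1-Ox. All 3 are dispersed genes of low level. SAUR41, known to promote cell expansion, had 5 and 3 in the double line, against 17 and 11 in IBH1-Ox. SAUR68 had 3 and 0 in the double line, against 6 and 5 in IBH1-Ox. The double line had the lower mean in each of these. With no filter on low means, limma-voom called SAUR38 lower (log2 fold change -1.63 ± 0.61, adjusted p 0.0377) and did not call the other 4 of them. The dispersed members SAUR8, SAUR9, SAUR36, SAUR37, SAUR53, SAUR69, SAUR70, SAUR71 and SAUR72, fitted but not called, had log2 fold changes from -0.64 (SAUR69) to 0.23 (SAUR9). The most abundant of the dispersed members, SAUR37, had 140 and 118 in the double line, against 149 and 156 in IBH1-Ox, a log2 fold change of -0.23 ± 0.15 that was not called (limma-voom adjusted p 0.25). SAUR25 and SAUR40 had at most 4 reads in any library.

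The members listed as lower in IBH1-Ox can be set beside their own values in the second comparison, bearing in mind that the comparisons share the IBH1-Ox libraries. SAUR16, with a log2 ratio of -1.03 in IBH1-Ox against wild type, had 402 and 421 normalized counts in the double line, against 370 and 420 in IBH1-Ox, and a log2 fold change of 0.07 ± 0.09 there. SAUR15, at -2.00 in the first comparison, had 22.1 and 15.0 in the double line, against 16.3 and 11 in IBH1-Ox, and a log2 fold change of 0.46 ± 0.40 in the second. For both genes the ranges of the double line and IBH1-Ox overlapped. SAUR64, at -1.31 in the first, had 86.8 and 103 in the double line, against 74.7 and 67.2 in IBH1-Ox, without overlap and with a log2 fold change of 0.41 ± 0.19 (limma-voom adjusted p 0.099). SAUR20 had log2 values of -1.35 in the first comparison and 0.06 ± 0.27 in the second, SAUR21 of -1.16 and -0.53 ± 0.29, and SAUR22 of -1.39 and 0.23 ± 0.47. SAUR63 had -0.63 and -0.61 ± 0.20, with the second value called, SAUR26 had -0.80 and -0.56 ± 0.32, and SAUR27 -1.09 and -0.19 ± 0.35. SAUR62 had -0.93 and -0.09 ± 0.18, SAUR65 -1.04 and -0.61 ± 0.32, SAUR66 -0.92 and 0.05 ± 0.19, and SAUR67 -0.69 and -0.30 ± 0.23. The first value of each pair comes from the authors' deposited table and the second from limma-voom with its SE. SAUR61, too low for that fit, had log2 ratios of -1.82 and -0.91 in the authors' deposited tables, the second not called. SAUR14, absent from the first table, had 636 and 612 in the double line, against 581 and 558 in IBH1-Ox, a log2 fold change of 0.13 ± 0.08 that was not called. SAUR23 (0.53 ± 0.29) and SAUR24 (0.69 ± 0.35), the chromosome 5 copies not listed in the first table, were not called in the second.

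The 250 bases before each gene start in RefSeq were searched on both strands for 3 hexamers, and for further motifs given below. The first was CATGTG, an E-box variant bound by bHLH and BZR1-type factors. The second was TGTCTC, an auxin response element. The third was GGTCCC, part of an element first described in soybean SAUR promoters. Before the members they occurred 59 times, with 0 overlaps between occurrences. CATGTG was found before 28 of the 50 members (56.0%), against 11.1% of 27443 protein-coding genes. It stood before 12 of the 14 members listed as lower in IBH1-Ox and before 16 of the other 36. All 14 lie in tandem clusters, where CATGTG stood before 23 of 32 members, against 5 of the 18 dispersed ones. TGTCTC was found before 7 members (14.0%, against 10.9% of all genes), 6 of them among the 14, and GGTCCC before 8 (16.0%, against 2.78%), 6 of them among the 14 and all 6 in the chromosome 1 cluster. The G-box CACGTG was found before 0 of the 50 members, against 6.49% of all genes, which says only that these letters are not in this window. The auxin response core TGTC stood before 82.0% of members and 74.8% of all genes. The E-box CATATG was found before 24.0% of members and 7.12% of all genes, TGTCGG before 2 members and 4.16% of all genes, and the brassinosteroid response element CGTGCG before 0 members and 1.57% of all genes, with its variant CGTGTG before 0 members and 5.37%. Tandem copies share sequence, so the members are not independent, and these matches are a description with no test. Windows are shown for a pair of members listed as lower in IBH1-Ox (SAUR64 and SAUR15), a member called higher in the double line (SAUR5), and SAUR52, which holds none of the 3 hexamers. They lie at chr1:10306596-10306845 (minus strand), chr4:18125807-18126056 (plus strand), chr4:16598708-16598957 (plus strand) and chr1:28383770-28384019 (minus strand). Each is written toward the gene, and capitals mark the 3 hexamers on either strand.
SAUR64: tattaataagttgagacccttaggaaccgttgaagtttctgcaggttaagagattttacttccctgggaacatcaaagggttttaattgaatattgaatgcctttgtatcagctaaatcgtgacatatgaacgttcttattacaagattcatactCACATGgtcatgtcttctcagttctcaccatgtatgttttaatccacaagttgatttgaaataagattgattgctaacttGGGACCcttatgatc
SAUR15: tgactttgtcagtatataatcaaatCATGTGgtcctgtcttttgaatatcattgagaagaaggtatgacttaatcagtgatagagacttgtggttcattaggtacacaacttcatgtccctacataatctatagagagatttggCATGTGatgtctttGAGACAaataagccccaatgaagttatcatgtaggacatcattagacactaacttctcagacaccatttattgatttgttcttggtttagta
SAUR5: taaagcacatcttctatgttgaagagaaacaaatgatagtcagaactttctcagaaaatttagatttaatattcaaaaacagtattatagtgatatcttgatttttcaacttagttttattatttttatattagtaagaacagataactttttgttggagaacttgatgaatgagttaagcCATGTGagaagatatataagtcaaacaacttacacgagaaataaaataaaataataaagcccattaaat
SAUR52: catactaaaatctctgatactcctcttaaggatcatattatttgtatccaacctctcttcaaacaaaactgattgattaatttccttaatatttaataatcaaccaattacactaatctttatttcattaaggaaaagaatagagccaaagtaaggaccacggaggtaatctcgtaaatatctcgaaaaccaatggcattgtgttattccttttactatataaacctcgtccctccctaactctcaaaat

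Among the targets of SAUR proteins, the PP2C.D phosphatases and the AHA proton pumps, no gene was listed against wild type (0 of 9 phosphatases and 0 of 11 pumps). Over all tests implied there, 3.03% were listed as lower and 3.22% as higher, so 0 among so few genes says little. In the double line, 2 of the 9 phosphatases were higher and 1 lower than in IBH1-Ox by the authors' adjusted p below 0.05. Over all genes with a p-value the same rule called 12.7% higher and 9.78% lower. APD9 (AT5G66080) had 366 and 323 normalized counts in the double line, against 78.6 and 81.5 in IBH1-Ox (log2 fold change 2.11 ± 0.14, limma-voom adjusted p 8.1e-11). APD7 (AT5G02760), the phosphatase also called PP2C.D1, had 480 and 513 in the double line, against 1321 and 1239 in IBH1-Ox (log2 fold change -1.37 ± 0.08, limma-voom adjusted p 4.1e-12). The groups were far apart for both genes, in opposite directions. APD6, the other called phosphatase, rose by less than 2-fold, with a log2 fold change of 0.62 ± 0.06.

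Of the 10 pumps with a p-value, 5 were higher and 1 lower in the double line by the authors' adjusted p below 0.05. The shares over all genes with a p-value were 12.7% and 9.78%. None of the called pumps changed by 2-fold, and they are named here after their values were seen. AHA2, the most highly read pump, had 27482 and 26429 normalized counts in the double line, against 19552 and 20666 in IBH1-Ox, a log2 fold change of 0.43 ± 0.04 (SE, n = 2 each; limma-voom). AHA1 (0.34 ± 0.04), AHA3 (0.57 ± 0.05), AHA9 (0.54 ± 0.13) and AHA11 (0.49 ± 0.06) rose likewise. AHA4 fell, with a log2 fold change of -0.67 ± 0.14. AHA6 was at 0 in both groups, and the other pumps did not pass the test.

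**Figure D4:**
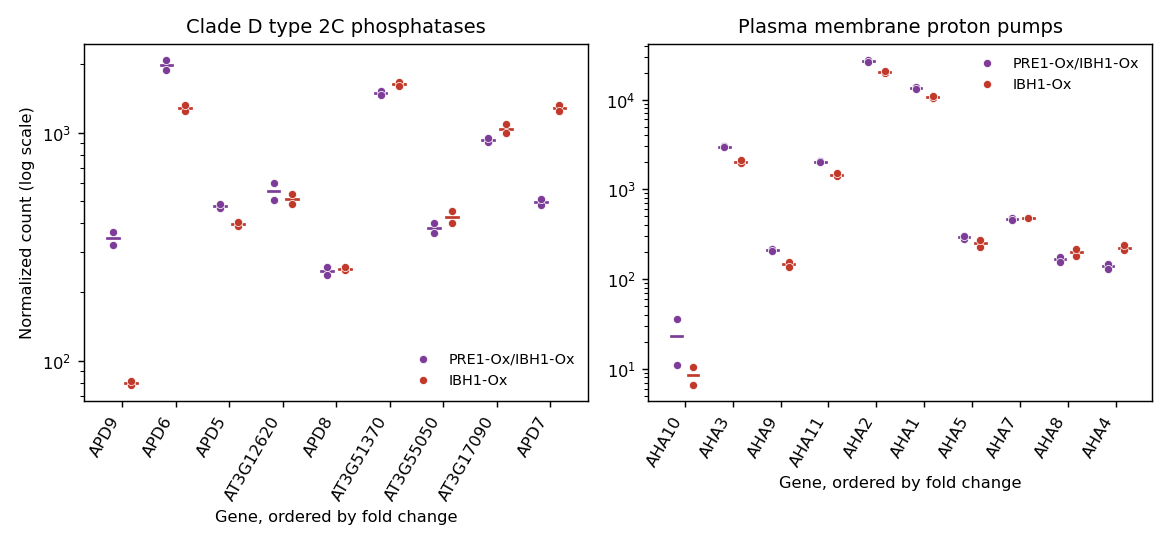
Normalized counts (log axes) of the 9 PP2C.D phosphatases (left) and of the 10 AHA pumps with reads (right), each ordered by fold change, with the libraries of the double line in purple to the left of IBH1-Ox libraries in red. Each point is a library and each bar the mean of a group. APD9 is higher and APD7 lower in the double line, and AHA1, AHA2, AHA3, AHA9 and AHA11 are higher.

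Of the genes that act before SAUR transcription, the TIR1/AFB auxin receptors (6 genes) and the activating auxin response factors (5 genes) had 0 members listed against wild type. In the double line, AFB5 was the receptor called, with a log2 fold change of 0.21 ± 0.06, and ARF5 the response factor called, with -0.42 ± 0.09 (SE, n = 2 each; limma-voom). Of 29 Aux/IAA repressors, which hold response factors inactive until auxin triggers their breakdown, 3 were listed as higher and 1 as lower in IBH1-Ox. In the double line 5 were higher and 7 lower than in IBH1-Ox by the authors' test. Over all genes the shares were 3.22% higher and 3.03% lower in the first comparison, and 12.7% and 9.78% in the second. IAA34 had 47.1 and 33.2 normalized counts in IBH1-Ox, against 4.76 and 4.51 in wild type, and in the comparison of the double line with IBH1-Ox it had 1.58 and 3.76 in the double line, against 42.2 and 29.7 in IBH1-Ox. IAA29 had 104 and 89.8 in IBH1-Ox, against 53.2 and 37.2 in wild type, and 20.5 and 13.1 in the double line, against 92.9 and 80.4 in IBH1-Ox. In both genes the IBH1-Ox libraries were the high ones in each table, and the tables share those libraries. IAA3, the one listed as lower in IBH1-Ox, had the opposite directions, with changes under 2-fold. Its log2 ratio was -0.69 in IBH1-Ox against wild type and 0.56 in the double line against IBH1-Ox. The adjusted p-values were 4.13e-10 and 4.85e-06 in the authors' deposited tables, and IAA3 is named after its values were seen. IAA1 had 93.1 and 86.4 in the double line, against 259 and 203 in IBH1-Ox, and IAA20 had 15.0 and 18.5 in IBH1-Ox, against 0.794 and 2.25 in wild type.

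Among the 5 factors known to bind SAUR promoters, PIF4 alone was listed against wild type, with 673 and 667 normalized counts in IBH1-Ox, against 1164 and 1184 in wild type (log2 ratio -0.81 in the authors' deposited table). In the double line PIF4 had 112 and 113, against 603 and 597 in IBH1-Ox, a log2 fold change of -2.41 ± 0.14. PIF5, named PIL6 in RefSeq, had 300 and 376 in the double line, against 1521 and 1530 in IBH1-Ox, a log2 fold change of -2.19 ± 0.09. Both factors were lower in each double-line library by several fold. HBI1 (-0.61 ± 0.06) fell and BES1 (0.80 ± 0.06) rose, all with SE and n = 2 each from limma-voom, and BZR1 did not pass the test.

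Markers of organs moved with the groups in part. Of 6 root markers, 4 were listed as higher in IBH1-Ox (EXPA7, EXPA18, TIP2;3 and LRX1), against 3.22% of all tests. These 4 sum to 2533 and 2553 normalized counts in IBH1-Ox, against 1533 and 1481 in wild type. PYK10 and SHV2 were not listed. In the double line 0 root markers were higher and 1 (TIP2;3) lower by the authors' test. The authors' means of the 6 sum to 79315 in the double line, against 79849 in IBH1-Ox. PYK10 alone had means of 77004 and 77232 in that order, so these sums mostly give the level of PYK10. Of 6 shoot markers, RuBisCO small subunit and light-harvesting genes, 0 were listed against wild type, and in the double line the 4 RuBisCO genes were higher and both light-harvesting genes lower. The authors' means of these 6 sum to 634025 in the double line, against 644858 in IBH1-Ox. The 5 seed storage transcripts, which mark residual seed RNA, sum to 440 and 398 normalized counts in the double line, against 1774 and 761 in IBH1-Ox. The authors' test called 0 of the 5 in that comparison. By limma-voom 3 of the 4 fitted were called lower, against 17.3% of all genes fitted. SESA2 was the one listed as higher in IBH1-Ox against wild type. No defining marker of root, shoot or seed had a group mean of 0 in the second table, and CRU2, a seed storage gene, had 3 and 0 reads in the double line, against 8 and 4 in IBH1-Ox. The part of organ proportions or seedling age in the members' differences was not tested.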

How the data were processed

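Total RNA of 6 seedling libraries in 3 groups was sequenced, from TruSeq libraries per the labels' protocols. The authors used TopHat, DESeq and TAIR10, per the submitters' processing notes, with versions not given in the sources used here. Deposited by the authors were 2 tables with, per the file headers, a signal (each group's mean normalized count), the fold ratio of the means, its log2 (used from the first table), and p-values raw and adjusted. The first lists 1547 called genes; p divided by adjusted p gave whole ranks most often (84.3% of genes with p above 1e-04, within 0.02) for 24779 tests.

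The authors' deposited means were split into whole reads of each library within 10 significant digits (relative tolerance 1e-10, at least 2e-09). Of these means 99.8% to 100.0% split, all 50 members among them, and the IBH1-Ox reads of the 1545 genes split in both tables were identical. Recovered libraries carry no replicate number. The main counts of called members use the authors' test. Standard errors come from limma-voom (limma 3.58.1, R 4.3.3) on recovered reads of the second comparison, scaled by the size factors of the authors, over genes of mean 10 or more. On simulated counts for that comparison (19884 genes, assumed dispersion 0.01) limma called 50%, 92%, 98% and 100% of genes changed 1.5-, 2-, 4- and 8-fold, and 8.11% of calls were false. Few genes were changed in the simulation, all upward, while limma called 20.8% of the real genes higher and 17.3% lower. The simulated rates, pooled over genes of all levels, need not hold for the real data or for members of low count. For the first comparison only the listed genes were at hand. The entries that name no gene (ambiguous reads 1.24% and 1.25% of the signal, no feature 0.959% and 1.05%, in the double line and IBH1-Ox) were left out. Names and sequences are from RefSeq, TAIR10.1.

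Every member is accounted for by cluster. Libraries are given one by one for members whose group means differ at least 2-fold in a comparison and for the most abundant member of each cluster, and genes of other lists are named where called with a 2-fold change, up to 4 per list; genes of those lists with smaller changes were named after their values were seen. The members, lists and motifs were chosen with earlier results of these data known.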

Additional observations from a re-analysis of the deposited data

How the results depend on the processing

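In IBH1-Ox against wild type, 14 members were lower; 12 were at an adjusted p below 0.01, 9 at a fold of 2 or more, and 13 without members of 95% identity. Leaving out each library left 12 to 14 of them at a ratio of 1.5 or more, all 14 in the same direction. That direction was fixed in advance, because the libraries of the groups did not overlap for any of the 14. The 14 were also listed by the same ratio of 1.5, so these counts are a description. The 1 higher member, SAUR37, became 0 at an adjusted p below 0.01 and 0 at a fold of 2 or more, and stayed 1 without each library. In the double line against IBH1-Ox, the 3 higher members of the authors' test became 5 in limma-voom, 5 with genes of mean above 0, and 4 to 6 with each library left out. The 2 lower members became 1 at an adjusted p below 0.01, 1 at a fold of 2 or more, 1 with genes of mean 50 or more, 3 with genes of mean above 0 (SAUR38 added), and 1 to 3 with each library left out. Where a group keeps 1 library, that library is assumed to vary like the others. With total reads as library sizes the median of all genes lay at -0.10 on the log2 scale, against -0.0044, and the call of SAUR6 was lost (adjusted p 0.281); no called member changed direction. The members' median log2 fold change stayed between -0.079 and 0.026. Wild-type values were at hand for listed genes, so the first comparison could not be refitted. No paired analysis was possible because the recovered libraries carry no replicate number. Members under a mean of 10 are limited by depth.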

Other observations

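Of 27 other SAUR genes that are not among the members above, 1 was listed as lower in IBH1-Ox and 0 as higher. They include SAUR73, which lies within the span of the chromosome 3 cluster. Of the 27, 22 had a p-value in the second comparison. Among these 22, 4 were higher and 1 lower in the double line than in IBH1-Ox by the authors' adjusted p below 0.05. Over all genes the shares were 3.03% lower and 3.22% higher in the first comparison, and 12.7% higher and 9.78% lower in the second. SAUR57 had 20.3 and 30.8 normalized counts in IBH1-Ox, against 73.0 and 74.4 in wild type. In the second table it had 99.4 and 97.7 in the double line, against 18.2 and 27.5 in IBH1-Ox, a log2 fold change of 2.14 ± 0.26 (SE, n = 2 each; limma-voom adjusted p 8.9e-07). Its IBH1-Ox libraries were thus the low ones in both tables, which share them. SAUR60 had 110 and 126 in the double line, against 54.6 and 49.6 in IBH1-Ox (1.16 ± 0.19, limma-voom adjusted p 4.7e-05). SAUR42 had 8 and 5 reads in the double line, against 1 and 0 in IBH1-Ox, and SAUR44 had 0 and 1, against 10 and 15, counts too low for a fold. SAUR78, the most abundant of the 5, had 1372 and 1347 normalized counts in the double line, against 804 and 782 in IBH1-Ox, a log2 fold change of 0.78 ± 0.06 that lies under 2-fold; it is named after its value was seen.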
